A study of Mus musculus with 82 samples.

Results

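CTCF binding at 96 h was examined in 4 stembryo libraries, one from each of the deletion lines Del(CBS1), Del(CBS2), Del(CBS1-2) and Del(CBS1-5). These are 4 of the 82 samples of the series and 4 of its 8 CTCF lists. The lines lack CTCF-binding sites (CBS) inside the HoxD cluster on chromosome 2, so this chromosome was left out and the 4 libraries were read, on all other chromosomes, as 4 samples of the 96 h stage. Their shared sites were compared with the CTCF lists of wild-type (wt) stembryos at 72 h and 168 h.

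Stembryos are aggregates of mouse embryonic stem (mES) cells that form an elongating, posterior body axis in culture after a pulse of Wnt agonist. All groups received this pulse between 48 h and 72 h, and each library was made from pooled stembryos by ChIPmentation with the same CTCF antibody. Del(CBS1) lacks CBS1, Del(CBS2) lacks CBS2, Del(CBS1-2) lacks both and was made from Del(CBS1) cells, and Del(CBS1-5) carries deletions of the 5 sites CBS1 to CBS5. The first 3 lines descend from the wt mES cells of the study, whereas the Del(CBS1-5) mES cells were derived from blastocysts of mutant mice. Each line is thus represented by 1 culture, and no wt CTCF list at 96 h or deletion-line list at 72 h or 168 h was used. Stage, genotype, clone and sequencing run therefore cannot be told apart between the lines and wt, and the study's sample sheet lists shorter reads for both wt CTCF libraries than for the 4 lines.

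CTCF is a zinc-finger protein that binds a long DNA motif and stops the cohesin ring, so that cohesin, of which RAD21 is a subunit, accumulates at bound sites and anchors chromatin loops. Most CTCF sites are shared between cell types, and those that vary tend to be weak or sensitive to DNA methylation. At HoxD, the sites separate early from late Hoxd genes along the cluster.

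The 96 h lists held 38538 to 48464 regions outside chromosome 2, against 59370 for wt at 72 h and 53522 for wt at 168 h. Merging the regions of the 6 lists wherever they shared a base gave 72880 sites. The study's sample sheet lists more sequenced read pairs for wt at 72 h than for any other of the 6 libraries, and slightly more for wt at 168 h than for each line. The lowest background coverage that MACS2 used was 2.50 to 3.06 fragments in the 4 lines, 2.03 in wt at 72 h and 2.93 in wt at 168 h, so its order is not that of the sequenced pairs. On chromosome 2, 9 sites were called in both wt lists between Evx2 and Hoxd1, numbered here from the Hoxd1 side, and the lists went with their labels there except at site 1 in Del(CBS1-5). Del(CBS1) lacked a region over site 1, Del(CBS2) over site 2, Del(CBS1-2) over both, and Del(CBS1-5) over sites 2 to 5. The Del(CBS1-5) library kept a region over site 1 (chr2:74715972-74716438, mm10) that began beyond the wt summits at 74715953 and 74715941. Its own summit at 74716192 lay beside the weaker of the 2 summits of the Del(CBS2) list at this place, 74716174. H3K27ac regions lay within 1 kb of the promoters of 10 to 12 of 12 streak and axial progenitor genes in the 96 h lists of wt, Del(CBS1) and Del(CBS1-2). The same lists held 6 to 7 of 9 paraxial mesoderm, 5 to 6 of 7 neural, 1 to 4 of 7 cardiac and vascular and 1 to 5 of 5 endoderm promoters, along with 2 to 6 of 6 epiblast and 3 to 6 of 10 naive pluripotency promoters. H3K27ac of Del(CBS2) and Del(CBS1-5) was not analysed here. In such mixed material, fewer cells with a bound site and less binding per cell cannot be told apart.

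The 4 lines shared 31773 sites, 43.6% of all sites. Of these, 31556 were also in both wt lists (43.3% of all sites and 99.3% of the shared ones), 169 were in the wt 72 h list only (0.232% of all sites), 43 in the wt 168 h list only (0.0590%), and 5 in neither (0.00686%). In the other direction, 2297 sites were in both wt lists and in none of the 4 lines, 3.15% of all sites and 5.10% of the 45001 sites (61.7%) that both wt lists held. A further 3005 sites of both wt lists were in 1 line, 3504 in 2 lines and 4639 in 3 lines. CTCF sites shared by the lines were thus nearly all in the wt lists of an earlier and a later stage. The wt 72 h list held 7807 sites of its own (10.7%) and the wt 168 h list 5775 (7.92%).

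**Figure D1:**
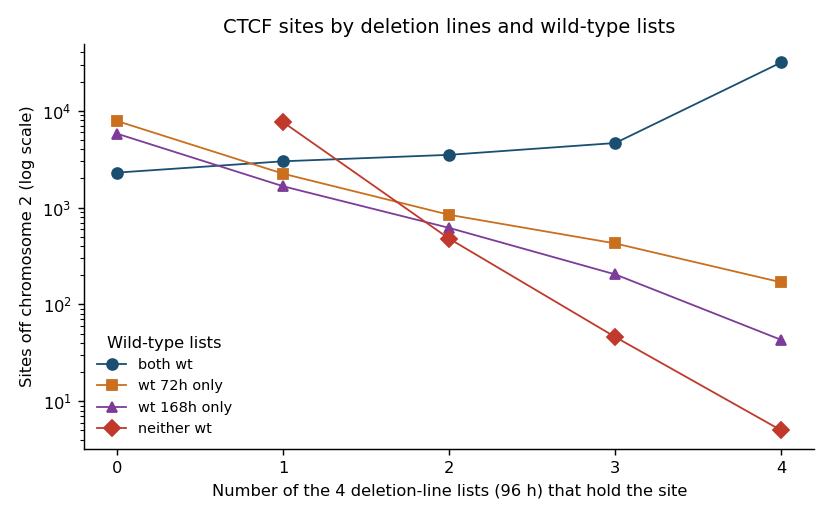
Number of CTCF sites off chromosome 2 (log scale) against the number of the 4 deletion-line lists at 96 h that hold the site, drawn separately by presence in the wt lists. The series for both wt lists climbs from 2297 sites in no line to 31556 in all 4, and the series for neither wt list falls from 7582 sites in 1 line to 5 in all 4.

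The balance between the 2 classes moved with the length of the lists. With each list cut to its 38538 strongest regions, 140 sites were in all 4 lines and neither wt list, and 291 were in both wt lists and no line. Of the 140, 137 lay in at least 1 complete wt list and 111 in both, and of the 291, 167 lay in at least 1 complete line list. The longest list, wt at 72 h, came from the library with the most sequenced pairs and the lowest background (2.03 against 2.50 to 3.06 in the lines), and the part of either in the counts was not tested.

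The reference DNA under the summits shows what the 2 classes hold. Each line gives 30 bases of the mouse reference genome (RefSeq, GRCm38.p6, the same chromosomes as mm10), read 5′ to 3′ on the strand of the best motif match, or on the plus strand around the summit where there was no match. Capitals mark the 19-bp match to the CTCF motif that was learnt from sites in all 6 lists (consensus NCCAGNAGAGGGCANNANA, N for no preferred base, both strands). The first 3 were called in all 4 lines and neither wt list, and the last 4 in both wt lists and no line.
Tmbim4 (chr10:120224084-120224113, plus strand): ataagagaaattgtacacaaaaggccctgg
Gm10719 (chr9:3020400-3020429, plus strand): tttcttgattttcatttttcttgccatatt
Ifnar1 (chr16:91507347-91507376, minus strand): agacacACCAGAAGGGGGCATCAGAtccta
Gm10634 (chr9:88746878-88746907, minus strand): ctgagcACCACAAGATGGCACACTAtgaaa
Fthl17f (chrX:9061164-9061193, plus strand): acgtgTCCAGCAGAGGGCGCGGTGtacatg
Dynlt1b (chr17:6432578-6432607, minus strand): ccgagcACCAGCAGAGGGCATCAGAtctca
Gng2 (chr14:19976937-19976966, plus strand): catggaaaacgtgtcctttaccttgcttgg

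A motif match within 30 bp of the summit was found in 76.4% of sites in all 6 lists (95% exact binomial interval 75.9 to 76.9), where 5.00% of positions 1000 bp away matched. Among the sites of both wt lists and no line, 43.7% matched (41.6 to 45.7), and among the 5 sites of the lines alone 1 did (20.0%, 0.505 to 71.6). These intervals cover counting error only. With a threshold that 1.00% of background positions reach, the shares were 68.8% for sites in all 6 lists and 31.0% for sites of both wt lists and no line. Windows of 201 bp around the summit were mostly masked as repeats at 33.8% of the sites of both wt lists and no line, and at 18.4% of sites in all 6 lists.

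All 5 sites called in the 4 lines and neither wt list were examined one by one. The strongest (chr9:3020249-3020509) lay near the start of the assembled chromosome 9, in an intron of the predicted gene Gm10719, in DNA masked as repeat throughout the 201 bp around the summit. Its fold enrichment was 10.7 in Del(CBS1), 11.5 in Del(CBS2), 11.6 in Del(CBS1-2) and 9.72 in Del(CBS1-5), and 9 of 16 wt RAD21 lists held a region there. Fold enrichment is the coverage at the summit over the background of the same library. The second site (chr10:120223911-120224331) lay in an exon of Tmbim4, which encodes a Golgi membrane protein that limits cell death. It had values of 6.29, 4.34, 4.35 and 5.46 in the same order of lines, from 15 to 21 fragments at the summit, and 8 of 16 wt RAD21 lists held it.

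The third site (chr16:91507205-91507472) was in an untranslated region of Ifnar1, a subunit of the type I interferon receptor, again in repeat DNA, and was the only one of the 5 with a motif match. Its fold enrichment was 4.04, 3.83, 5.55 and 4.46, and none of the 16 wt RAD21 lists or the 2 Del(CBS1) RAD21 lists at 96 h held it. The remaining 2 sites, in an intron of Mettl7a2 (chr15:100356167-100356549) and between genes on the Y chromosome (chrY:90739602-90740175), had values of 2.63 to 4.18. The Y site was in 16 of 16 wt RAD21 lists and the Mettl7a2 site in 1. The Gm10719 site was the only one of the 5 with at least 5-fold enrichment in all 4 lines, and it had no motif match.

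The sites of both wt lists that no line held were mostly weak. Their median fold enrichment was 4.28 in wt at 72 h and 4.07 in wt at 168 h, with 13.0 and 17.0 fragments at the summit, whereas sites in all 6 lists had medians of 9.68 and 9.14. Sites with less than 4-fold enrichment in the weaker wt list were in no line in 22.6% of cases and in all 4 lines in 19.4%. Between 5 and 6 these shares were 2.90% and 56.7%, and at 10 or more they were 0.0574% and 98.9%, which left 6 of 10450 strong sites in no line. Presence in the lines therefore followed the enrichment of the site in wt, a measure that also sets whether a region can be called at all.

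**Figure D2:**
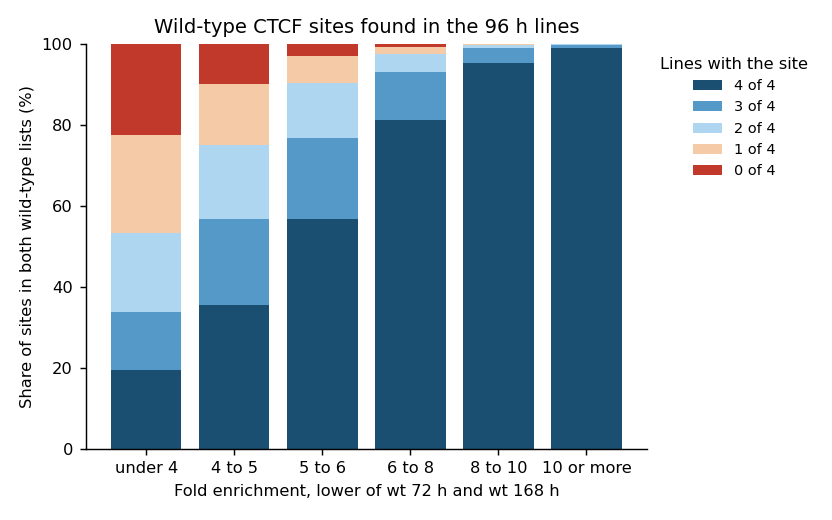
Share (%) of the sites in both wt lists that were found in 0, 1, 2, 3 or 4 of the 96 h lines, against the lower of the 2 wt fold enrichments. Each bar sums to 100%, and the segment for all 4 lines grows from 19.4% under 4-fold to 98.9% at 10-fold or more.

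Among the 10 sites of this class with the highest wt enrichment, the first lay in an intron of the antisense gene Gm10634 (chr9:88746416-88747023), close to the apoptosis regulator Bcl2a1d. It had 14.5-fold enrichment at 72 h and 20.0-fold at 168 h. The site 1831 bp from Fthl17f, a ferritin heavy chain-like gene of the X chromosome (chrX:9060960-9061340), had 12.9 and 16.7. An intron of Dynlt1b, a dynein light chain gene (chr17:6432493-6432774), held a site with 11.7 and 10.3. None of the 4 lines had a region at these places, and the Fthl17f and Dynlt1b sites were also in none of the 16 wt RAD21 lists, whereas the Gm10634 site was in 15.

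Another pair of the 10 lay at promoters and had RAD21 regions. The site in Gng2, a G-protein gamma subunit (chr14:19976786-19977286, 107 bp from a start site), had 9.69 and 12.7 and was in all 16 wt RAD21 lists and both Del(CBS1) RAD21 lists at 96 h. The site 437 bp from Nhs, the gene mutated in Nance-Horan syndrome (chrX:162159945-162160411), had 9.89 and 12.7 and was in 14 wt and both Del(CBS1) RAD21 lists. Neither window held a motif match. The other 5 had Mup1, Olfr1507, Gm5799, Zfp991 and 2410141K09Rik as the nearest protein-coding genes, 10671 to 214036 bp away, and the one next to Gm5799 had a motif match. Mup, Olfr and Zfp genes belong to multicopy families. Reads with low mapping quality were discarded by the authors, and how far this touched such families was not tested.

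The X chromosome held 16 of the 218 sites of this class that had at least 5-fold enrichment in both wt lists (7.34%), against 75 of all 2297 (3.27%) and 2.54% of all sites. Other classes also had X-chromosome shares above that of all sites, with 3.89% of the sites of wt at 72 h only and 9.25% of the sites with 5-fold enrichment or more that Del(CBS2) alone lacked. The letters common to the masked Ifnar1 and Dynlt1b matches (ACCAGNAGNGGGCATCAGATC, N for any base, both strands) were found within 100 bp of the summit in 3.79% of the sites of both wt lists and no line. They were in 0.548% of sites in all 6 lists and in 2.51% of all sites, and 11094 copies stood in the reference outside chromosome 2. Sites called in wt at 168 h only carried them in 5.71% of cases and sites called in wt at 72 h only in 3.52%. CTCF motifs of this kind are known from B2 short interspersed elements of rodents. The run was chosen after the values were seen, from the Ifnar1 and Dynlt1b sites, which are included in the counts. The match describes the sequence alone.

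Of the genes followed by list, those of the HoxA cluster had the strongest site of wt that was missing from the lines. It lay in introns annotated to Hoxa3, Gm28308 and Hoxaas3 (chr6:52197351-52197639), within 20 kb of each gene from Hoxa3 to Hoxa7. Its enrichment was 7.73-fold at 72 h and 9.40-fold at 168 h, with 23.0 and 54.0 fragments at the summit. No line had a CTCF region there, while 14 of 16 wt RAD21 lists, both Del(CBS1) RAD21 lists at 96 h and the Del(CBS1-5) RAD21 list at 120 h did. The HoxB cluster had 1 weak site of the same kind in Hoxb3 (3.95 and 3.66), and the HoxC cluster had none. Within 20 kb of the genes, 7 of 16 sites at HoxA, 7 of 20 at HoxB and 4 of 13 at HoxC were in all 6 lists, next to 43.3% over all sites.

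The other members of this class near listed genes were in Stag2, a cohesin subunit (chrX:42272766-42273034, 6.92 and 6.11), in Stag1, its paralog (2.94 and 3.57), and in the cardiac regulator Gata4 (2.90 and 3.31). In the imprinted noncoding RNA Meg3, 2 sites had 3.95 and 4.33, and 4.02 and 3.57. A site near H19, an imprinted gene whose allele-specific expression depends on CTCF, had 5.43 and 2.79. In Ftx, a noncoding RNA of the X-inactivation center, the values were 3.95 and 4.33. No list of pluripotency, epiblast, streak, paraxial mesoderm, neural or endoderm genes had a site of this class, but these lists had only 12 to 68 nearby sites each, and the class held 3.15% of all sites. None of the lists had a site of the 4 lines alone. Across the lists, 23.1% (X-linked noncoding loci) to 53.8% (neural genes) of nearby sites were in all 6 CTCF lists.

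Cohesin was measured separately, since no RAD21 list was used to define the sites. A RAD21 region counted where it shared any base with a site. Sites in all 6 lists were wider (median 913 bp) than those of both wt lists and no line (304 bp), which makes an overlap easier. At sites in all 6 CTCF lists, the 3 wt RAD21 lists at 96 h held 87.9% ± 3.35 (mean ± SD, n = 3), and at sites of both wt lists and no line they held 28.9% ± 5.11. The 2 Del(CBS1) lists at 96 h, from a line that is one of the 4 members, held 91.3% and 94.5% of the first class and 37.5% and 48.5% of the second. In wt at 96 h the second class had 23.3%, 30.3% and 33.3%, so both Del(CBS1) lists lay above the wt lists of the same stage. Both also held more sites of the first class than the wt lists of 96 h did (84.1% to 90.3%), and they had more regions in all (55084 and 62151, against 47665 to 54461). Over all 16 wt lists the second class ranged from 12.5% to 52.9%. The share over all 72880 sites was 37.3% to 63.9% in the wt lists, and 58.4% and 63.6% in the Del(CBS1) lists. Requiring a RAD21 summit within 150 bp of the site center lowered the shares at 96 h to 62.9% and 25.4%. Among the sites of the second class with 5-fold enrichment or more, 50.5% and 61.5% had RAD21 in Del(CBS1) at 96 h. Both values lay inside the range of the 16 wt lists, 19.7% to 66.1%.

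CTCF lists left out of the definition gave a similar order. The Del(CBS4) list at 120 h, the shortest with 23729 regions, held 67.6% of the sites in all 6 lists and 0.827% of those in both wt lists and no line. The list of Ins(2xCBS-d4d8) at 144 h, a line with added CTCF sites at HoxD, held 83.0% and 6.18%. Over all sites the shares were 30.5% and 41.2%. Of the 10 strongest sites of both wt lists and no line, the Ins(2xCBS-d4d8) list held 7 and the Del(CBS4) list 0.

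Sites that the 4 lines shared with 1 wt stage only leaned to the earlier stage in the complete lists, with 169 sites shared with 72 h and 43 with 168 h. At equal list length this order turned, with 535 and 731 sites, so no direction can be drawn from these counts. The 169 sites were bound with a median of 6.26-fold in wt at 72 h and 3.83-fold to 4.91-fold in the lines, and 71.6% had a motif match (64.2 to 78.3). The 43 sites had 5.07-fold in wt at 168 h and 3.58-fold to 4.72-fold in the lines.

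Among the 5 of the 169 sites with the highest enrichment, chosen after the values were seen, 3 had a motif match and are printed here. The first and second lay between genes, and the last in an intron of Tmem132c, a transmembrane protein gene.
chr6:73513057-73513086, plus strand: aagagGCCAGAGGGAGGCGATAGAtatcct
chr3:91543904-91543933, plus strand: tgtcaAACAACAGAGGGAGACAAAggaaca
Tmem132c (chr5:127271338-127271367, minus strand): ataagtTCCAGCAGAGGGAGCTTCTggcct
The chromosome 6 site had 8.51-fold enrichment in Del(CBS1), 7.85 in Del(CBS2), 9.21 in Del(CBS1-2), 9.70 in Del(CBS1-5) and 13.5 in wt at 72 h. In the same order, the chromosome 3 site had 10.7, 6.61, 6.64, 9.52 and 11.4, and the Tmem132c site had 7.15, 6.34, 7.63, 7.34 and 11.9. Their RAD21 regions were in 12, 12 and 11 of the 16 wt lists. Of the other 2 sites, one in an intron of the histone deacetylase gene Hdac1 had 6.43 to 7.30 in the lines and 10.1 in wt, and one near the start of the assembled chromosome 12 was masked as repeat throughout.

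The strongest of the 43 sites lay between genes on chromosome 5 and is shown for comparison.
chr5:101297093-101297122, minus strand: agaaagCCCTGCTGGGGGCGCTATTtctta
It had 9.83-fold enrichment in Del(CBS1), 5.78 in Del(CBS2), 7.11 in Del(CBS1-2), 6.03 in Del(CBS1-5) and 11 in wt at 168 h, and 6 of 16 wt RAD21 lists held it.

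Around Wnt3a, a Wnt ligand of the streak and tail bud, 2 sites were in all 4 lines and wt at 72 h and not in wt at 168 h. The first (chr11:59232827-59233153) had 4.65, 5.00, 3.77 and 4.91 in Del(CBS1), Del(CBS2), Del(CBS1-2) and Del(CBS1-5), and 6.20 in wt at 72 h. The second (chr11:59302677-59302990) had 6.10, 5.43, 6.22, 6.55 and 7.48. Each was in 15 of 16 wt RAD21 lists. In Firre, an X-linked noncoding RNA whose repeats bind CTCF, another such site had 5.43, 4.96, 5.17, 6.03 and 5.6 and was in 3 of 16 wt RAD21 lists.

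The reverse pattern, present in the lines and at 168 h but not at 72 h, was seen at 2 imprinted loci. In an intron of Peg3 (chr7:6729134-6729445), a paternally expressed zinc-finger gene, the values were 2.87, 2.31, 2.61 and 3.65 in the lines and 3.71 in wt at 168 h. Near H19 (chr7:142581650-142582162) they were 2.65, 3.56, 3.82, 5.56 and 3.26. The Peg3 site was in all 16 wt RAD21 lists and the H19 site in 5.

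RAD21 at these 2 classes was read over the stages separately for the 2 tags under which the labels gave the cells. In the libraries with the tag "cell type", 65.7% of the 169 sites had RAD21 at 72 h and 42.0% at 84 h. At 96 h the shares were 51.5% and 62.1%. They were then 37.3% (108 h), 29.6% (132 h), 26.6% and 55.6% (144 h) and 13.6% (168 h). The same libraries held 71.4% to 90.6% of the sites in all 6 lists, with 71.4% at 168 h, where the list was short (34316 regions). In the libraries with the tag "cell line", the shares were 62.7% (48 h), 44.4% (72 h), 69.8% (84 h), 64.5% (96 h), 69.2% (108 h), 66.9% (132 h) and 50.9% (144 h). The tag did not part the lists cleanly. Under "cell type", the second lists of 96 h (62.1%) and 144 h (55.6%) lay near the "cell line" lists of these stages (64.5% and 50.9%). The first lists stood at 51.5% and 26.6%. Per the study's sample sheet, these first lists came from shorter reads, and the part of read length was not tested. A fall with stage was seen mainly among the first lists under "cell type". The 2 lists of 144 h under this tag differed by as much as that fall between 84 h and 168 h. Of the 43 sites, 20.9% and 14.0% had RAD21 in the lists of 72 h, 41.9%, 41.9% and 46.5% in those of 144 h, and 18.6% in that of 168 h. Stage and library cannot be told apart where a stage has 1 list.

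**Figure D3:**
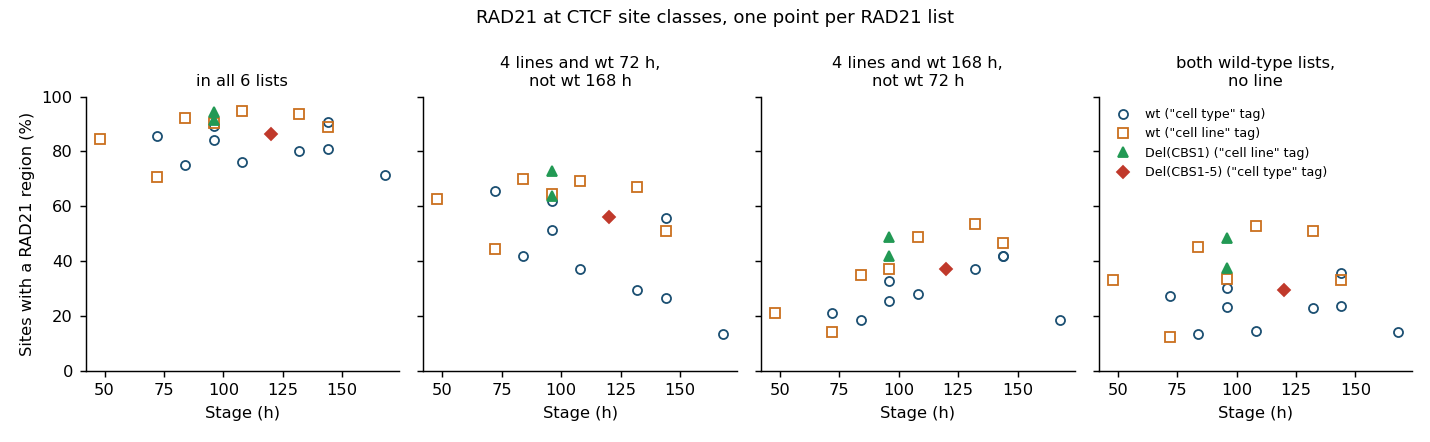
Share (%) of CTCF sites with a RAD21 region against stage (h after aggregation), with 1 point per RAD21 list, in 4 classes of sites. Open circles and squares are wt lists with the tag "cell type" or "cell line", filled triangles are Del(CBS1) and the filled diamond is Del(CBS1-5). Sites of the lines and wt at 72 h stand at 13.6% in the only list of 168 h, which was short (34316 regions). They stand at 26.6% to 55.6% in the lists of 144 h. Sites in all 6 lists stay at 70.6% or more.

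The 4 lines were not alike. Del(CBS1-5) held 2397 sites that no other list had (3.29% of all sites) and lacked 1813 that the other 5 had (2.49%). For Del(CBS2), the shortest list, the counts were 766 (1.05%) and 2221 (3.05%), for Del(CBS1) 1816 (2.49%) and 326 (0.447%), and for Del(CBS1-2) 2603 (3.57%) and 279 (0.383%). Of its own sites, 364 had 5-fold enrichment or more, against 34 in Del(CBS1), 5 in Del(CBS2) and 8 in Del(CBS1-2). Of the sites it alone lacked, 323 had 5-fold enrichment or more in every other list, against 10, 227 and 7 in the same order. The median enrichment of the whole list was also higher, 8.63 against 6.22 to 6.77 in the other lines, and its part in the first count was not tested. At equal list length it still held 2123 sites of its own, against 881 to 1427 in the other lines, and lacked 1180, against 297 to 701.

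A motif match was found in 54.4% of the 364 strong sites of Del(CBS1-5) alone (49.1 to 59.6) and in 56.7% of the 323 strong sites that it alone lacked (51.1 to 62.1). Over all its own sites the share was 25.2%, and over those of Del(CBS1), Del(CBS2) and Del(CBS1-2) 11.1%, 7.18% and 12%. The start of a protein-coding gene lay within 1 kb of 38.4% of the sites called in Del(CBS1-5) alone, 32.1% of those in Del(CBS2) alone and 11.6% of sites in all 6 lists. Among the 364 sites of Del(CBS1-5) with 5-fold enrichment or more it was 16.5%.

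The reference sequence at strong sites of both kinds is shown because some of them carried the same run. The first 4 were called in Del(CBS1-5) alone and the last 2 in every list but Del(CBS1-5). The letters are those of the reference strain and not those of the lines.
Myo7a (chr7:98052169-98052198, plus strand): tgccgGGCACTAGAGGGCGCTCTCaccagc
Neo1 (chr9:58928294-58928323, minus strand): aattcaACCACCAGGTGGCACTGTGtgcct
Gm48116 (chr13:61711013-61711042, plus strand): gtgccGCCACTAGATGGTGCTAAAcctctt
Skint11 (chr4:114173080-114173109, minus strand): tgtgccGCCACTAGATGGTGCTAAAcctct
C1rb (chr6:124570214-124570243, plus strand): cattgACCACCAGATGGCGCCATCaagcaa
Gm44247 (chr6:133706891-133706920, plus strand): gtgccGCCACTAGATGGTGCTAAAcctctt

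The site in Myo7a, an unconventional myosin of hair cells, had 21.5-fold enrichment in Del(CBS1-5) and 127 fragments at the summit, with no region in the other 5 lists or in any of the 16 wt RAD21 lists. RAD21 of Del(CBS1-5) at 120 h had a region there. Neo1, the receptor neogenin, held a site with RAD21 in Del(CBS1-5) and in 2 of 16 wt lists. The opposite case stood 78 bp from C1rb, a complement protease gene, where the other lines had 11.5, 11.7 and 13.9 and wt 12.6 and 13.0, all 16 wt RAD21 lists had a region, and Del(CBS1-5) had neither CTCF nor RAD21. Gm48116, Skint11 and Gm44247 share the 19-bp match exactly. The longer run common to them (GTGCCGCCACTAGATGGTGCTAAACCTCT) stood near the summit of 22 of all 72880 sites (0.0302%), of which 18 were in all 6 lists, 2 in Del(CBS1-5) alone and 1 in every list but Del(CBS1-5). A second run, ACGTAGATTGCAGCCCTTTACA, stood near the summit of 4 of the 364 sites (1.10%), of 9 of the 31556 sites in all 6 lists (0.0285%) and of 17 of all 72880 (0.0233%), with 28 copies in the reference outside chromosome 2. These sites were chosen after their values were seen. Both runs were read from the strongest sites of Del(CBS1-5) alone, and those sites are included in the counts. The shares in that class were thus partly fixed in advance.

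RAD21 of Del(CBS1-5) itself, made at 120 h from the same line, was read at the same sites. It held 67.9% (62.8 to 72.6) of the 364 strong sites called in Del(CBS1-5) alone, whereas the 16 wt lists held 3.85% to 19.8% and the 2 Del(CBS1) lists 10.7% and 14.3%. At the 323 strong sites that Del(CBS1-5) lacked, its RAD21 list held 42.4%, the 2 Del(CBS1) lists 79.6% and 87.9%, and the wt lists 42.4% to 88.9%. At sites in all 6 CTCF lists it held 86.5%, inside the wt range of 70.6% to 94.6%. The gain was outside the range of every other RAD21 list and the loss equaled the lowest wt value, that of the short wt list at 168 h. With 1 RAD21 list of this line, neither has a replicate check, and allele, strain background and line cannot be told apart.

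**Figure D4:**
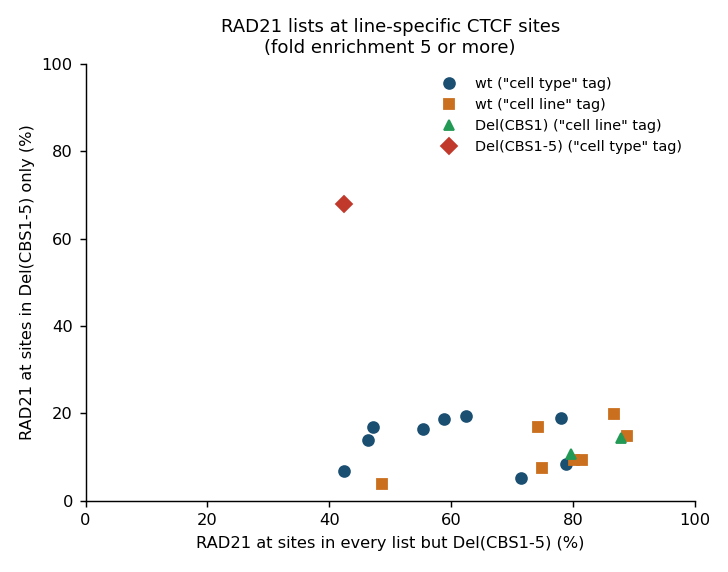
RAD21 share (%) at strong CTCF sites called in Del(CBS1-5) alone (y axis) against that at strong sites called in every list but Del(CBS1-5) (x axis), with 1 point per RAD21 list. The Del(CBS1-5) list stands at 67.9% and 42.4%, and the 18 others lie at 19.8% or below on the y axis.

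Sites of Del(CBS1-5) near listed genes were mostly weak. One next to T, the streak transcription factor Brachyury (chr17:8442023-8443093), had 4.38-fold enrichment and 35.0 fragments, while a neighboring site (chr17:8443598-8444397) had 3.49 to 4.26 in the other lines, 5.23 and 5.51 in wt and no region in Del(CBS1-5). At Dll1, a Notch ligand of the presomitic mesoderm, a site of Del(CBS1-5) alone had 3.84 and a site of all lists but this had 3.43, 3.58 and 4.97 in the lines and 7.42 and 4.77 in wt. At the posterior gene Hoxa9, a site in an exon had 3.96, 3.58 and 5.00 in the other lines and 6.14 and 4.25 in wt. The missing Dll1 site was in 15 of 16 wt RAD21 lists, the T site in 8 and the Hoxa9 site in 2. RAD21 of Del(CBS1-5) at 120 h still had regions at the Dll1 and T sites that its CTCF list lacked, and none at the Hoxa9 site.

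Among the other lines, Del(CBS1) and the Del(CBS1-2) cells made from it shared 262 sites that no other list had (0.359% of all sites). The other 5 pairs of lines shared 26 to 61 such sites. At equal list length the numbers were 261 and 124 to 165. RAD21 of Del(CBS1) at 96 h was present at 16.4% and 19.5% of the 262, with 2.67% to 14.9% in wt. The same lists also lay above wt at the sites called in Del(CBS1-2) alone, with 18.8% and 14.1% against 1.04% to 12.4%, so the excess was not particular to the 262. In Del(CBS2), 6 sites that followed each other among those of all 5 other lists were missing over 2040 kb of the X chromosome around Pou3f4, Hmgn5 and Sh3bgrl (chrX:109012529-111053341). The other lists had a median of 5.58-fold there and a lowest value of 2.71-fold. This run was the longest over all chromosomes searched and was not tested. Del(CBS2), the shortest list, alone lacked 6.58% of the sites of the 5 other lists. On the X chromosome it alone lacked 90 sites, beside 768 in all 6 lists. The other runs of missing sites in the 4 lines were of at most 4 sites.

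Heights were compared at the sites in all 6 lists. Fragment numbers at the summit were log2 transformed and centered on the median of each library, and limma with Benjamini-Hochberg adjustment tested the 4 lines against the 2 wt libraries at 31426 sites. At an adjusted p under 0.05, 0 sites were higher (0% of those tested) and 0 were lower (0%), the lowest adjusted p being 0.182, and 1306 sites had an unadjusted p under 0.05. Heights were also simulated with independent noise and 1 SD per site for all 6 libraries. There, 44 of 100 sites changed 2-fold and 96 of 100 changed 4-fold were recovered, with 9 false calls, so changes of 2-fold would often be missed. The real libraries were less even. The SD of their height differences was 0.339 to 0.351 among Del(CBS1), Del(CBS2) and Del(CBS1-2) and 0.555 between the wt libraries, so recovery in these data may differ. The 4 lines are different genotypes with 1 library each and not replicate cultures of 1 genotype. The p-values therefore measure only the spread between these samples. The wt group joins a 72 h and a 168 h library, which differed more than 2-fold at 6.45% of sites. Its spread thus holds their stage difference, and the lack of calls does not show equal heights. Without Del(CBS1-5), 22 of the 31426 sites were higher and 91 lower in the lines. The median degrees of freedom of that fit were 94300, against 39.9 in the main fit. Its variances therefore came almost wholly from the trend over all sites, and its calls do not rest on the spread of each site.

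Del(CBS1), Del(CBS2) and Del(CBS1-2) were the most alike. They share both the 96 h stage and the mES cells of origin. Del(CBS1-5) has the same stage but other cells, and wt the same cells but other stages. The part of either was not tested. Between the lines Del(CBS1), Del(CBS2) and Del(CBS1-2), 0.71% to 0.878% of sites differed more than 2-fold. Del(CBS1-5) differed from these 3 at 5.38% to 6.49% of sites, and from wt at 7.91% (72 h) and 5.1% (168 h). The other 3 lines differed from wt at 2.4% to 3.72% of sites, less than from Del(CBS1-5), and the 2 wt libraries from each other at 6.45%. Pearson's r of the centered log2 heights across the sites, which share their base composition and are not replicates, was 0.912 to 0.916 among the 3 lines and 0.820 to 0.838 between them and Del(CBS1-5). Between these 3 lines and wt it was 0.835 or lower at 72 h and 0.875 to 0.898 at 168 h. These are single libraries, so the differences between lines have no replicate check.

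**Figure D5:**
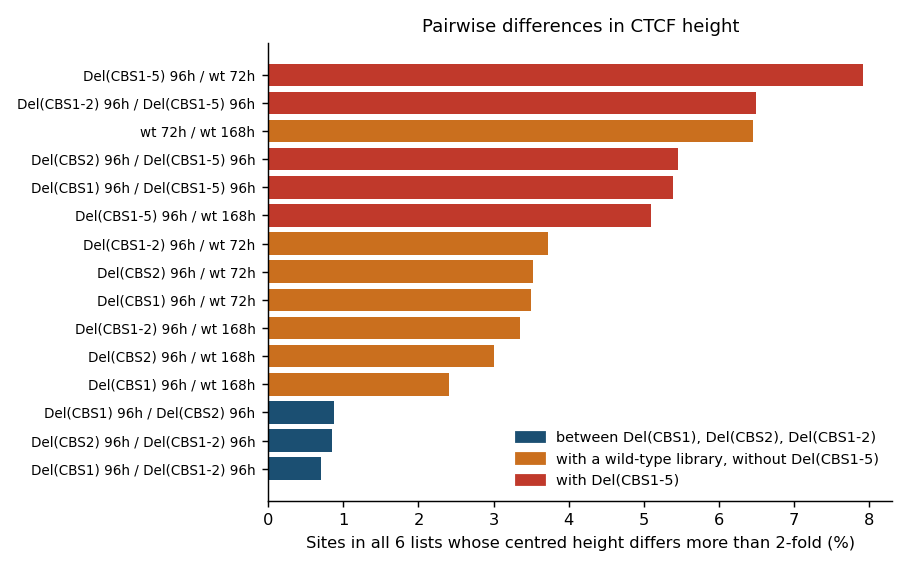
Share (%) of the 31426 sites in all 6 lists whose centered height differs more than 2-fold, for each pair of libraries. The 3 pairs among Del(CBS1), Del(CBS2) and Del(CBS1-2) lie under 1%, every pair with Del(CBS1-5) lies above 5%, and the 2 wt libraries differ at 6.45%.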

How the data were processed

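ChIPmentation or ChIP was run by the authors on pooled stembryos, 1 library per list. Per the submitters' processing notes and the study's methods, reads were trimmed with cutadapt (1.16), aligned to mm10 with Bowtie2 (2.3.4.1), filtered for mapping quality and proper pairs with SAMtools (1.8), and regions were called in each library without input by MACS2 (2.1.1.20160309). The deposited lists give fold enrichment, a ratio of summit coverage to background, −log10 p- and q-values, a display score, and the summit position. The deposited score entered no result. H3K27me3, CDX2 and pSer2PolII lists were not used, nor was 1 file without a sample.

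Here, regions of the 6 CTCF lists on assembled chromosomes except 2 were merged where they shared at least 1 base. Fragment numbers at summits were recovered from fold enrichment and −log10 p as whole numbers (tolerance 0.001 on −log10 p, 99.8% to 100.0% of peaks). A 19-bp motif was learnt from 1500 sites in all 6 lists, starting from the 9-base word most enriched there, and scored on 1500 others, of which 75.9% matched. Sites were located by GENCODE (M21) and heights tested with limma (3.58.1, R 4.3.3), checked on simulated data. Class counts carry no test, because each line has 1 library.

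Members, gene lists and classes were chosen with earlier results of these data known. Named sites were those in all 4 lines and neither wt list, the 10 of both wt lists and no line with the highest minimum enrichment, any site of these classes within 20 kb of a listed gene (no sequence is given for chromosomes 2 and 18), and the 8 largest height changes each way among calls, of which there were none. Alternatives were a −log10 q of at least 5, equal list length, summits within 150 bp, each library left out, a stricter motif threshold, other height scales and, chosen after seeing the data, a fold enrichment of at least 5.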

Additional observations from a re-analysis of the deposited data

How the results depend on the processing

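The number of sites in all 4 lines stayed within 1.5 times 31773 under every alternative run (28066 at a −log10 q of at least 5, 30233 at equal list length, 31776 to 34333 with a library left out). The other counts depended on list length and on which libraries took part. Sites in all 4 lines and neither wt list numbered 3 at a −log10 q of at least 5, 140 at equal list length, 6 with summits within 150 bp, 1 at a fold enrichment of at least 5, and 6 to 174 with a library left out. They numbered 174 without wt 72 h, 50 without wt 168 h, 26 without Del(CBS1-5), 25 without Del(CBS2) and 9 without Del(CBS1-2). Sites in both wt lists and no line numbered 291 at equal list length, 218 at a fold enrichment of at least 5, and 2424 to 10436 with a library left out (3519 without Del(CBS1-2), 8079 without wt 72 h, 10436 without wt 168 h). Leaving out a library makes membership of these 2 classes easier by construction. The stricter motif threshold lowered the motif shares to 68.8% (all 6 lists) and 31.0% (both wt lists, no line), and the RAD21 summit rule lowered the share at sites in all 6 lists to 62.9%. Height calls numbered 1 on deposited fold enrichment, 0 after quantile normalization and 0 among sites with a −log10 q of at least 5, and 0 to 113 with a library left out (113 without Del(CBS1-5)), and the cause was not tested. A lone wt sample in such a fit is assumed to vary like the lines. No paired analysis was possible because each group has 1 CTCF library, so a shared replicate number 1 pairs nothing. The wt 72 h library was sequenced more deeply than the others, per the study's sample sheet, and a site absent from a list may be bound below the limit of calling.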

Other observations

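Libraries not used to define the sites gave further values. H3K27ac regions overlapped 26.1% to 34.5% of the sites of Del(CBS1-5) alone in the 13 wt lists, 28.6% to 29.2% in the 4 Del(CBS1) lists and 28.7% to 30.8% in the 4 Del(CBS1-2) lists, against 7.90% to 18.7%, 13.7% to 14.1% and 13.1% to 14.5% at sites in all 6 CTCF lists. Among the 364 strong sites of Del(CBS1-5) alone the wt lists held 13.7% to 15.9%. At the sites of Del(CBS1-2) alone they held 0.615% to 2.73%. In the 8 wt lists of PolII, the RNA polymerase that transcribes genes, regions lay at 28.0% to 36.5% of the sites of Del(CBS1-5) alone and at 5.27% to 9.15% of sites in all 6 lists, and in the 8 wt lists of NIPBL, the cohesin loader, at 7.30% to 29.3% and 1.59% to 23.1%. The sites of Del(CBS2) alone had similar values in wt, with H3K27ac at 21.7% to 24.5%, PolII at 24.2% to 29.0% and NIPBL at 9.14% to 32.4%. RAD21 regions of Del(CBS1-5) at 120 h lay at 29.2% of the sites called in Del(CBS2) alone and at 3.50% of those called in Del(CBS1-2) alone, where the wt lists held 3.26% to 30.7% and 1.04% to 12.4%.

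On the Y chromosome, with 31 sites, Del(CBS1-5) lacked 5 that all other lists held, and 3 of its 10 strongest missing sites lay there between 90725827 and 90761911. None of the 8 library measures compared over the 4 lines, or of the fold enrichments of 20 named sites, was flagged by Dixon's rule. With only 4 values each, the rule can pass wide gaps. At chr12:3109874-3110087, Del(CBS1-5) had 26.6-fold enrichment against 9.37 to 13.8 in the other 3 lines and was not flagged. The counts of own and missing sites with 5-fold enrichment or more were not among the 8 measures. The lack of flags therefore does not show that the lines were alike.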
